A study of Mus musculus with 8 samples.

Results

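The oocyte genes Nlrp4a, Nlrp4b, Nlrp4c, Nlrp4e, Nlrp9a, Nlrp9b, Nlrp9c and Nlrp14 were followed through 8 RNA-seq libraries of mouse embryos. They were chosen by symbol, with earlier results of these data known, and all 8 were found among the 52636 gene identifiers of the count table. The libraries come from wild-type B6C3F1 x CD1 zygotes of an experiment that asked what happens when the zona pellucida protein ZP3 is degraded inside the embryo by Trim-away, in which TRIM21 brings a protein bound by an injected antibody to the proteasome. The Trim-away ZP3 group (n = 3) received mCherry-Trim21 mRNA at 0.2 mg/mL, oregon green dextran beads at 0.02 mg/mL and anti-ZP3 antibody at 1 mg/mL, injected 15 h after hCG. The Trim21 overexpression group (n = 4) received the same mRNA and beads with antibody buffer in place of the antibody, and 1 library is of non-manipulated embryos. These sizes, doses and times are those of the sample labels; the paper's text gives the sizes of the injected groups the other way round, lower mRNA and bead doses and a later injection. RNA was extracted on the evening following the injection day, when by the labels the Trim21 overexpression and non-manipulated embryos were at E1.5 and those of the Trim-away ZP3 group were still given as E0.5. The methods give arrest of the latter at the 1-cell stage, so that antibody, stage and ZP3 loss cannot be told apart. Each library is a pool of embryos, in which fewer cells of a kind and less RNA per cell cannot be told apart, and nothing says whether the pools came from separate matings, so p-values measure the spread between these libraries.

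NLRP proteins carry a nucleotide-binding NACHT domain and leucine-rich repeats. Some of the family, such as NLRP3, form inflammasomes in immune cells, whereas the Nlrp4, Nlrp9 and Nlrp14 genes of the mouse are expressed chiefly in the germ line. Their mRNAs accumulate in the growing oocyte, are stored, and decay during meiotic maturation and after fertilisation, while the proteins persist into early cleavage.

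All 8 genes lie on chromosome 7 (GRCm38, GENCODE M21) and are protein coding. Nlrp9c (minus strand, 26322473 to 26403700), Nlrp4a (plus strand, 26435113 to 26476142) and Nlrp9a (plus strand, 26535023 to 26575615) are neighbours, with gaps of 31.4 and 58.9 kb and 0 coding genes in either gap. Nlrp4c (6045161 to 6105150), Nlrp4b (10687789 to 10730168), Nlrp9b (19991465 to 20073306), Nlrp4e (23301192 to 23362277) and Nlrp14 (107166990 to 107198102) lie apart from them, all on the plus strand. RefSeq promoters, from 250 bases before to 50 bases after an annotated start, matched 7 of the 8 genes, all but Nlrp14. The following promoters were picked because they align closely, those of Nlrp4a, Nlrp4b and Nlrp4c with each other and that of Nlrp9a with that of Nlrp9c. The values of these genes can thus be set beside them. Capitals mark CAGCTG, an E-box of the kind bound by basic helix-loop-helix factors, and CCAAT, the CCAAT box, on either strand (the complement of CCAAT reads ATTGG).

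Nlrp4a, chr7:26435364-26435663, plus strand: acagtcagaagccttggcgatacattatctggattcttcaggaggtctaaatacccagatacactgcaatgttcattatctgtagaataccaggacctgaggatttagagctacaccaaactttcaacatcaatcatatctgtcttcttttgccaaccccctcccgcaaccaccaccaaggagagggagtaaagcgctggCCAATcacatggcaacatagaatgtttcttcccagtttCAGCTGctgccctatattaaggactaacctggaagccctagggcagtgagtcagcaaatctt

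Nlrp4b, chr7:10687543-10687842, plus strand: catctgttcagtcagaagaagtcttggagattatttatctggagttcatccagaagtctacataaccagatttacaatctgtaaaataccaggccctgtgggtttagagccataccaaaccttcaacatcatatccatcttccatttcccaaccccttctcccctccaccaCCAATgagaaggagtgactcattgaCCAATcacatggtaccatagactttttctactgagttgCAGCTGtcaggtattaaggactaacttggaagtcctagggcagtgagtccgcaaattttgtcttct

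Nlrp4c, chr7:6044911-6045210, plus strand: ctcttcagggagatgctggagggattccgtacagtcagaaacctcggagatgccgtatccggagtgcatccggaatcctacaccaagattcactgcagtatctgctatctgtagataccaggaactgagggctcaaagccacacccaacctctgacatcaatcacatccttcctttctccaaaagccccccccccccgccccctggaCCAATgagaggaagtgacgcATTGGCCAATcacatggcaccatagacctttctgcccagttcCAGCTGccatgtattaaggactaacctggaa

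Nlrp9a, chr7:26534773-26535072, plus strand: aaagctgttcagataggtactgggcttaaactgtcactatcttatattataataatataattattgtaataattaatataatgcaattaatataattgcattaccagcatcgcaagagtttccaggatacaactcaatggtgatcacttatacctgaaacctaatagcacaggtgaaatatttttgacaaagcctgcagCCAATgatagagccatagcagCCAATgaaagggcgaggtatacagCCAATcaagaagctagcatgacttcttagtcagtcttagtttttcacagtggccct

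Nlrp9c, chr7:26403651-26403950, minus strand: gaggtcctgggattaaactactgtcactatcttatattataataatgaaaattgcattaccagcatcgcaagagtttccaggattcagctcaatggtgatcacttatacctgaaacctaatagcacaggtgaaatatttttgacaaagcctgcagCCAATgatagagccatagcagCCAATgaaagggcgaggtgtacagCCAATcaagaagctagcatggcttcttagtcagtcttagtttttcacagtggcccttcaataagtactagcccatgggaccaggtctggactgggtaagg

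The promoters of Nlrp9a and Nlrp9c were 96.8% identical over 252 aligned bases, and each held 3 CCAAT boxes. The promoter of Nlrp4b was 80.7% identical to that of Nlrp4a (280 aligned bases; the second of the RefSeq starts of Nlrp4a is used) and 80.2% to that of Nlrp4c (257 bases). All of these Nlrp4 promoters held 1 CAGCTG, which began 16 bases before the start in Nlrp4b, 12 before it in Nlrp4a and 19 after it in Nlrp4c, and 1 to 3 CCAAT boxes. Nlrp4e held 1 CAGCTG and 1 CCAAT, and Nlrp9b held neither. The Nlrp9b window, chr7:20007773-20008072, lies inside the gene rather than at the gene start given above. Neither promoter aligned far: Nlrp4e over 50 bases with Nlrp4b and 37 with Nlrp4c, and Nlrp9b over 27 with Nlrp9a. The promoter at the first RefSeq start of Nlrp4a aligned over 18 bases with Nlrp4b and 24 with Nlrp4c. It held 1 CAGCTG and no CCAAT. Among 32851 RefSeq mouse promoters of this length, 16.3% held CAGCTG, 37.4% CCAAT, 13.6% TATAAA and 8.0% TAATTG on either strand. TATAAA was found in Nlrp9b, and TAATTG in Nlrp9a and Nlrp9b. These are letter matches in these windows only.

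The genes are close paralogs, so it was asked how well reads of 72 bases tell them apart. The longest reading frames were 78.4% to 93.9% identical among the Nlrp4 genes, with Nlrp4c and Nlrp4e the closest pair, and 83.2% to 87.7% among the Nlrp9 genes. Of the 72-base words in their transcripts, those found unchanged in any other gene made up 0% in Nlrp4b and Nlrp14, 0.393% in Nlrp4a, 0.904% in Nlrp9c, 2.23% in Nlrp9a, 3.63% in Nlrp4c, 4.56% in Nlrp9b and 21.8% in Nlrp4e. The words of Nlrp4e were shared mainly with the predicted genes Gm16443, Gm8486, Gm8685, Gm8728 and Gm4541, whose highest count in any library was 86 (Gm8486). The methods do not state how reads that match several genes were counted. These low counts thus do not bound the effect of the shared words on Nlrp4e. By this measure of sequence alone, Nlrp4e is the least easily told apart of the 8. The exons of Nlrp9b also share 136 bases with those of the pseudogene Gm18877, which had 0 counts, and the limit named for the predicted genes holds there too.

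Total counts were 13228428 to 15379933 in the Trim-away ZP3 group, 17615416 to 22427747 in the Trim21 overexpression group and 22248022 in the non-manipulated library. Expression is given as CPM, counts relative to 1000000 counts, of a library size scaled by TMM, a method that sets most genes to no change, and 3 counts correspond to 0.126 to 0.258 CPM, a limit that covers counting error only. Trim21 itself had 15576 to 205653 counts in the Trim21 overexpression libraries and 24727, 0 and 55 counts in the libraries labelled Trim-away ZP3 replicates 1, 2 and 3, which goes against the labels of replicates 2 and 3. Names follow the labels here, and counts of called genes are also given for replicate 1 alone. Of 9 markers of oocyte and zygote, 3 were higher in the Trim-away ZP3 group (Bmp15, Zp2 and Obox5) and 0 were lower, though Zp3 (28.3 to 55.7 against 105 to 141 CPM, edgeR adjusted p = 0.055) and Oosp1 (473 to 578 against 645 to 925 CPM, adjusted p = 0.130) lay below every Trim21 overexpression library. The summed level of the 9 was 5129 to 8360 CPM against 2256 to 3563 CPM. Summed markers of the 2-cell embryo were at 741 to 970 CPM against 252 to 645 CPM, with 0 of 8 called. Zscan4d made up much of this sum, at 471 to 634 against 98.6 to 322 CPM. It was the only one of the 8 without overlap between the groups. Cumulus cell markers summed to 11.7 to 53.4 and 12.2 to 38.2 CPM (Ptx3, Amh, Inha and Foxl2 at 0 throughout), sperm markers to at most 4.05 CPM (Tnp1 and Tnp2 at 0) and blood markers to 2.06 to 4.11 and 3.16 to 6.22 CPM (Hbb-bt at 0). Oviduct markers summed to 41.8 to 250 CPM against 304 to 370 CPM. Among them Epcam, which embryos also express, was at 5.07, 166 and 168 CPM in Trim-away ZP3 replicates 1 to 3 against 279 to 341 CPM, while Krt18 went the other way, at 25.6 to 71.9 against 0 to 24.8 CPM; 0 of the 3 tested were called. The part of these markers in the results below was not tested.

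Transcripts of 5 of the 8 genes, Nlrp4a, Nlrp4e, Nlrp9a, Nlrp9b and Nlrp14, were higher in the Trim-away ZP3 group than in the Trim21 overexpression group, and 0 were lower. All 8 passed the filter on low counts. Of the 13641 genes tested by the quasi-likelihood test of edgeR at a Benjamini-Hochberg adjusted p under 0.05, 407 (2.98%) were higher and 534 (3.91%) lower. The 8 genes were chosen with earlier results of these data known. The shares of all genes tested in this paragraph are thus a description and not a test of the 8. The median log2 fold change was 2.66 over the 8 genes and -0.04 over all genes tested. In 7 of the 8, each Trim-away ZP3 library lay above each Trim21 overexpression library, which held for 13.1% of all genes tested, and 0 of the 8 separated the other way (15.5%). Nlrp4c was the exception. All 8 log2 fold changes were above 0 (49.0% of all genes tested), 6 were above 2 (10.8%), and 7 were higher at an unadjusted p under 0.05 (8.99%). That of Nlrp4c was only 0.02 with a standard error of 1.33, and its sign was reversed in 10 of 18 alternatives. With the library labelled Trim-away ZP3 replicate 1 alone, assumed to vary like the other group, 5 of the 8 were called higher, against 1.60% of all genes tested in that fit. Nlrp9b (adjusted p = 0.0895) was not among these 5 and Nlrp9c (0.0445) was. Leaving out any 1 library left 3 or 4 called. In those fits 170 to 261 genes were called higher, of 12527 to 15428 tested.

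Nlrp9a had the smallest standard error. It was at 168, 277, 300 and 286 CPM in Trim21 overexpression replicates 1 to 4 and at 1852, 1301 and 1483 CPM in Trim-away ZP3 replicates 1 to 3. The groups were far apart compared with their spread, with means of 258 ± 60.7 (SD, n = 4) and 1546 ± 281 CPM (SD, n = 3), a 6.00-fold difference (log2 fold change 2.58, SE 0.26, edgeR adjusted p = 0.00397). The call was kept when any 1 library was left out, with log2 fold changes of 2.43 to 2.70.

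Nlrp9b, whose protein takes part in sensing rotavirus RNA in the mouse gut, had the largest fold of the 8. It was at 17.5, 21.9, 25.01 and 0.123 CPM in the Trim21 overexpression libraries and at 559, 371 and 224 CPM in the Trim-away ZP3 libraries. Replicate 4 of the Trim21 overexpression group stood far below the others with 2 counts, and still the groups did not overlap. The means differed 23.8-fold (log2 fold change 4.57, SE 1.09, edgeR adjusted p = 0.0399). Without Trim21 overexpression replicate 4 the log2 fold change of Nlrp9b was 4.16 (adjusted p = 0.0174), a size near that with all libraries. Leaving out any other library ended its call, with adjusted p values of 0.0715 to 0.1001, as did the use of Trim-away ZP3 replicate 1 alone (0.0895), and over all 18 alternatives the adjusted p of Nlrp9b ran from 0.00256 to 0.101.

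Nlrp9c, the most abundant of the 8, did not pass the test. It was at 1142, 1777, 1194 and 2075 CPM in the Trim21 overexpression libraries and at 4624, 2755 and 2616 CPM in the Trim-away ZP3 libraries. All Trim-away ZP3 libraries were above the others, by 2.15-fold in the means (log2 fold change 1.11, SE 0.29, edgeR adjusted p = 0.0564). Its adjusted p was 0.0595 to 0.154 when 1 library was left out and fell below 0.05 in 6 of 18 alternatives, among them DESeq2 and limma-voom.

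Nlrp4a was at 59.1, 16.2, 161 and 152 CPM in the Trim21 overexpression libraries and at 1630, 614 and 478 CPM in the Trim-away ZP3 libraries. Values within each group differed several fold, with coefficients of variation of 73.0% and 69.4%, yet the groups did not overlap. The means differed 9.35-fold (log2 fold change 3.22, SE 0.74, edgeR adjusted p = 0.0352). The call of Nlrp4a held without Trim21 overexpression replicate 2 and was lost without any other library, with an adjusted p of up to 0.114. Its log2 fold change was 2.49 without Trim-away ZP3 replicate 1 and up to 3.59 without another library.

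Nlrp4e, whose depletion from mouse oocytes has been linked to arrest in early cleavage, was at 15.8, 77.9, 54.7 and 36.0 CPM in the Trim21 overexpression libraries. In the Trim-away ZP3 libraries it was at 429, 238 and 252 CPM, all above the highest of the former. The difference was 6.66-fold (log2 fold change 2.73, SE 0.51, edgeR adjusted p = 0.0167). Without Trim21 overexpression replicate 4 the adjusted p of Nlrp4e was 0.057, and without any other library it was below the threshold.

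Nlrp4b was at 65.4, 18.3, 27.7 and 0 CPM in the Trim21 overexpression libraries and at 449, 176 and 136 CPM in the Trim-away ZP3 libraries. Replicate 4 had no count, which allows up to 0.184 CPM, and it was also the library with the least Nlrp9b. The means were 27.9 ± 27.6 (SD, n = 4) and 253 ± 170 CPM (SD, n = 3), 9.09-fold apart, and the difference did not pass the test (log2 fold change 3.18, SE 1.30, edgeR adjusted p = 0.197). The log2 fold change of Nlrp4b was 2.48 without Trim-away ZP3 replicate 1 and 4.04 without Trim21 overexpression replicate 1. Without Trim21 overexpression replicate 4 the standard error of Nlrp4b was 0.64 and its adjusted p 0.0646, and over the 18 alternatives the adjusted p ran from 0.0188 to 0.410.

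Nlrp4c, the closest relative of Nlrp4e, stood apart. It was at 40.1, 10.9, 4.08 and 12.1 CPM in the Trim21 overexpression libraries, at 47.7, 1.10 and 2.31 CPM in the Trim-away ZP3 libraries and at 0.0435 CPM (1 count) in the non-manipulated library. Trim-away ZP3 replicate 1 was the highest of all libraries, and replicates 2 and 3 were below every Trim21 overexpression library. The log2 fold change was 0.02 with a standard error of 1.33 (edgeR adjusted p = 0.997), so that neither a rise nor a fall by several fold can be told from no difference. Without Trim-away ZP3 replicate 1 the log2 fold change of Nlrp4c was -3.30 (adjusted p = 0.254), and the adjusted p was above 0.05 in all 18 alternatives.

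Nlrp14, a maternal factor needed for early mouse development, was at 198, 102, 265 and 259 CPM in the Trim21 overexpression libraries. It was at 1370, 822 and 716 CPM in the Trim-away ZP3 libraries, well above. The means were 206 ± 75.6 (SD, n = 4) and 969 ± 351 CPM (SD, n = 3), a 4.70-fold difference (log2 fold change 2.23, SE 0.37, edgeR adjusted p = 0.0116). Leaving out any 1 library kept the call, with log2 fold changes of 1.90 to 2.40.

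**Figure D1:**
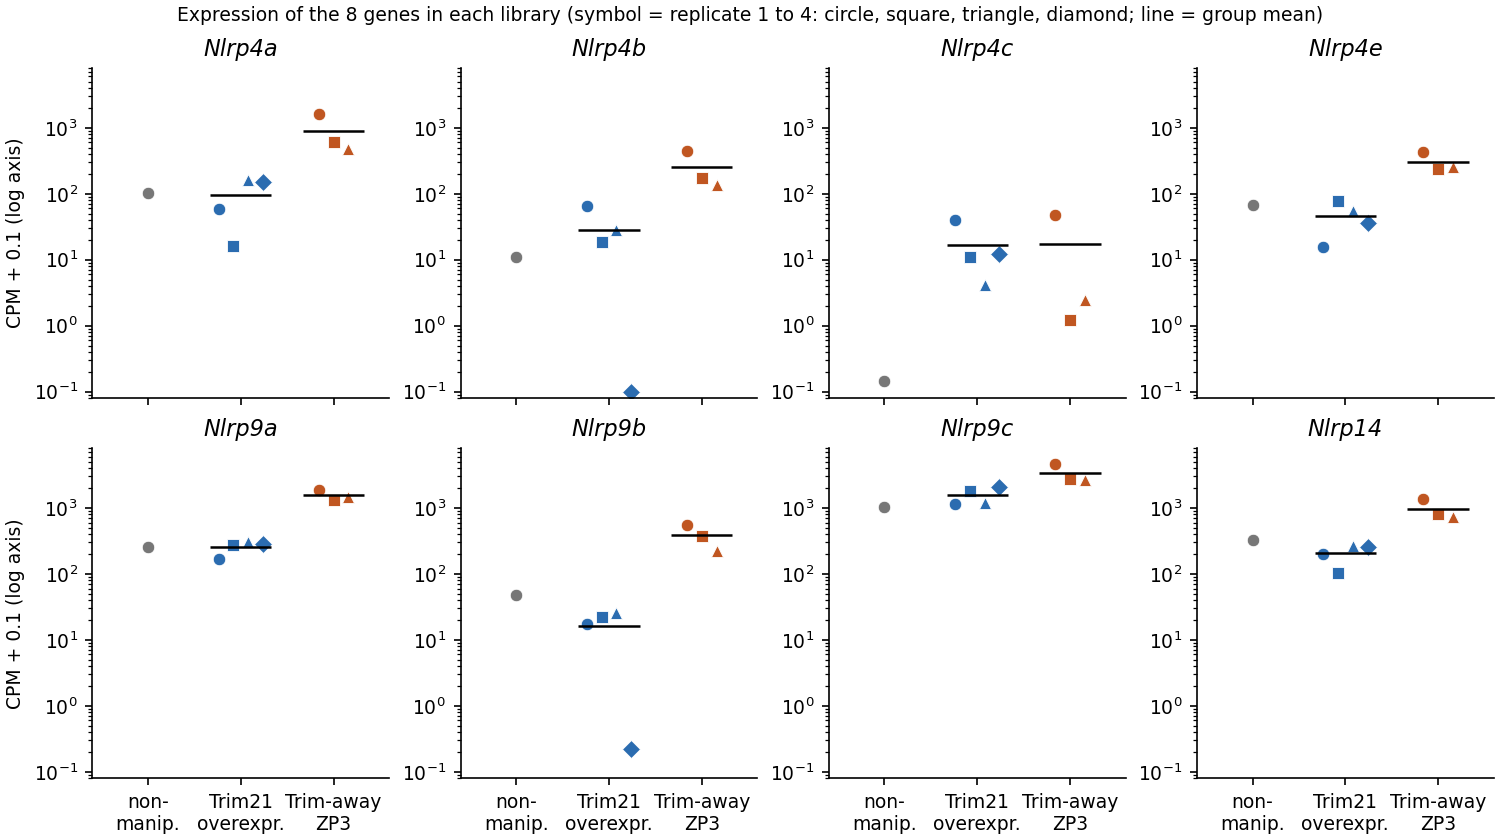
Expression of the 8 genes in each library as CPM + 0.1 on a log axis, by group; symbols are replicates and lines are group means. The Trim-away ZP3 libraries sit above all Trim21 overexpression libraries in 7 panels, while in Nlrp4c they run from 1.10 to 47.7 CPM and overlap with them.

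**Figure D2:**
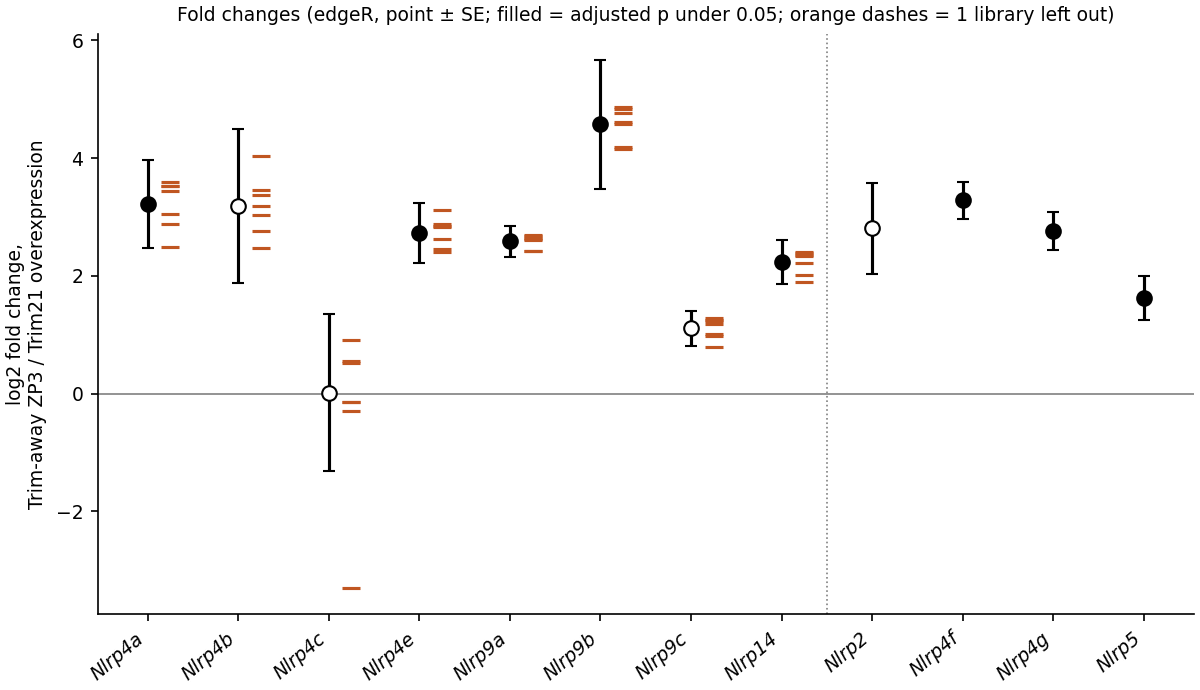
Log2 fold changes of the 8 genes and of 4 other oocyte Nlrp genes (Trim-away ZP3 over Trim21 overexpression, edgeR estimate ± SE); filled points had an adjusted p under 0.05 and orange dashes show the 8 genes with 1 library left out. Nlrp4c is near 0 and drops to -3.30 without Trim-away ZP3 replicate 1, and the other 7 genes stay above 0 whichever library is left out.

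The non-manipulated library was below every Trim-away ZP3 library for all 8 genes. For Nlrp4a (101 CPM), Nlrp4b (10.8 CPM), Nlrp4e (68.1 CPM) and Nlrp9a (253 CPM) it fell inside the range of the Trim21 overexpression libraries. It was above that range for Nlrp9b (48.0 CPM) and Nlrp14 (329 CPM), and below it for Nlrp9c (1034 CPM) and Nlrp4c. With 1 such library these differences were not tested.

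Levels of different genes were compared as CPM per kb of exon. In the Trim21 overexpression group the order of the means was Nlrp9c (261 CPM per kb), Nlrp9a (74.0), Nlrp14 (58.3), Nlrp4a (20.1), Nlrp4e (13.6), Nlrp4b (6.20), Nlrp9b (4.33) and Nlrp4c (4.19). The first step was larger than the spread: Nlrp9c was above Nlrp9a in every pairing of libraries. Each later pair of neighbours overlapped across libraries, though within each library Nlrp14 was above Nlrp4a. In the Trim-away ZP3 group the order was Nlrp9c (561 CPM per kb), Nlrp9a (444), Nlrp14 (274), Nlrp4a (187), Nlrp9b (103), Nlrp4e (90.2), Nlrp4b (56.4) and Nlrp4c (4.25). There the only neighbours that did not overlap across libraries were Nlrp4b and Nlrp4c. Within each Trim-away ZP3 library, however, Nlrp9c, Nlrp9a, Nlrp14, Nlrp4a and Nlrp9b kept this order. Nlrp9b was at rank 7 in the former group and at rank 5 in the latter, ahead of Nlrp4e and Nlrp4b, with which it overlapped. The exon lengths were not corrected for words shared with other genes, 21.8% in Nlrp4e and 4.56% in Nlrp9b. The part of these words in the order was not tested.

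**Figure D3:**
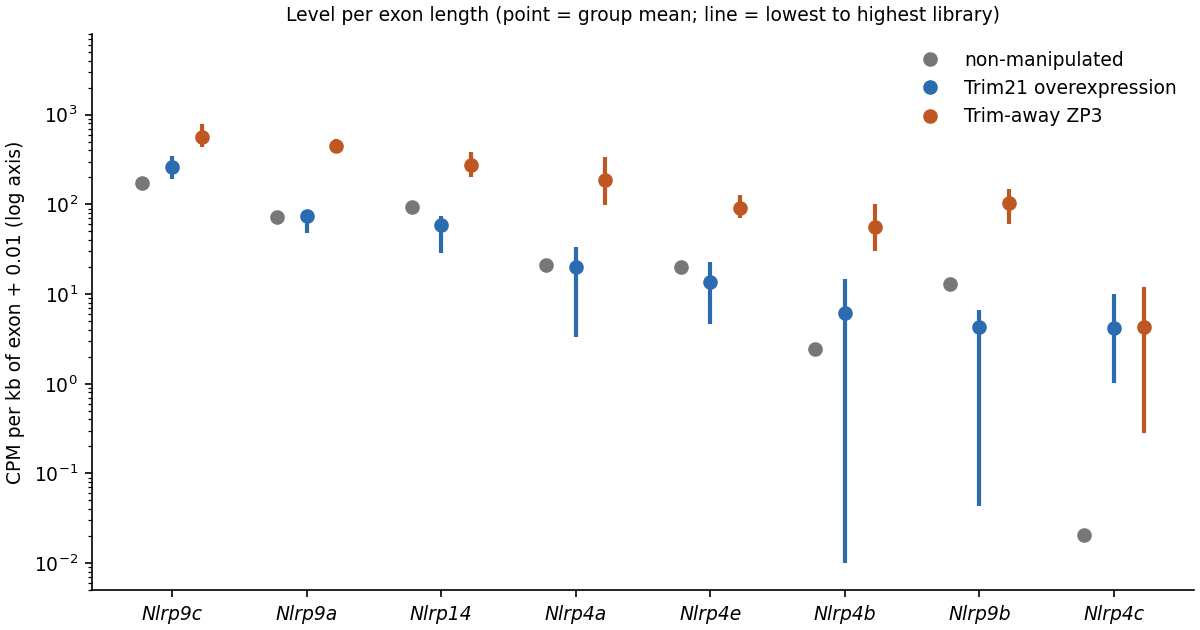
Level of each gene as CPM per kb of exon + 0.01 on a log axis; points are group means and lines span the lowest to the highest library. Nlrp9c leads in all 3 groups, and Nlrp4c is last in each, with means of 4.19 and 4.25 CPM per kb in the Trim21 overexpression and Trim-away ZP3 groups.

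The makeup of the Nlrp9 counts differed between the groups. Nlrp9c held 86.0%, 85.6%, 78.6% and 87.9% of the summed Nlrp9 counts in the Trim21 overexpression libraries and 65.7%, 62.2% and 60.5% in the Trim-away ZP3 libraries. Nlrp9a held 12.1% to 19.7% and 26.3% to 34.3%, and Nlrp9b 0.00520% to 1.65% and 5.17% to 8.39%. None of these shares overlapped between the groups. The non-manipulated library was at the edge of the Trim21 overexpression range or outside it, with 77.4% Nlrp9c, 18.97% Nlrp9a and 3.60% Nlrp9b. The promoters of Nlrp9a and Nlrp9c printed above were 96.8% identical over 252 aligned bases, and the folds of the 2 genes were 6.00 and 2.15. Any link between promoter and fold was not tested.

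The makeup of the Nlrp4 counts was uneven among the Trim21 overexpression libraries and even among the Trim-away ZP3 libraries. Nlrp4a held 32.7%, 13.2%, 65.0% and 76.0% of the summed Nlrp4 counts in the former and 63.8%, 59.7% and 55.1% in the latter. Nlrp4e held 8.74% to 63.2% and 16.8% to 29.0%, Nlrp4b 0% to 36.3% and 15.6% to 17.6%, and Nlrp4c 1.65% to 22.2% and 0.107% to 1.87%. The leading gene was Nlrp4b in Trim21 overexpression replicate 1, Nlrp4e in replicate 2 and Nlrp4a in replicates 3 and 4, in the 3 Trim-away ZP3 libraries and in the non-manipulated library. These counts were lower in the Trim21 overexpression group, and whether their number sets the spread was not tested.

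**Figure D4:**
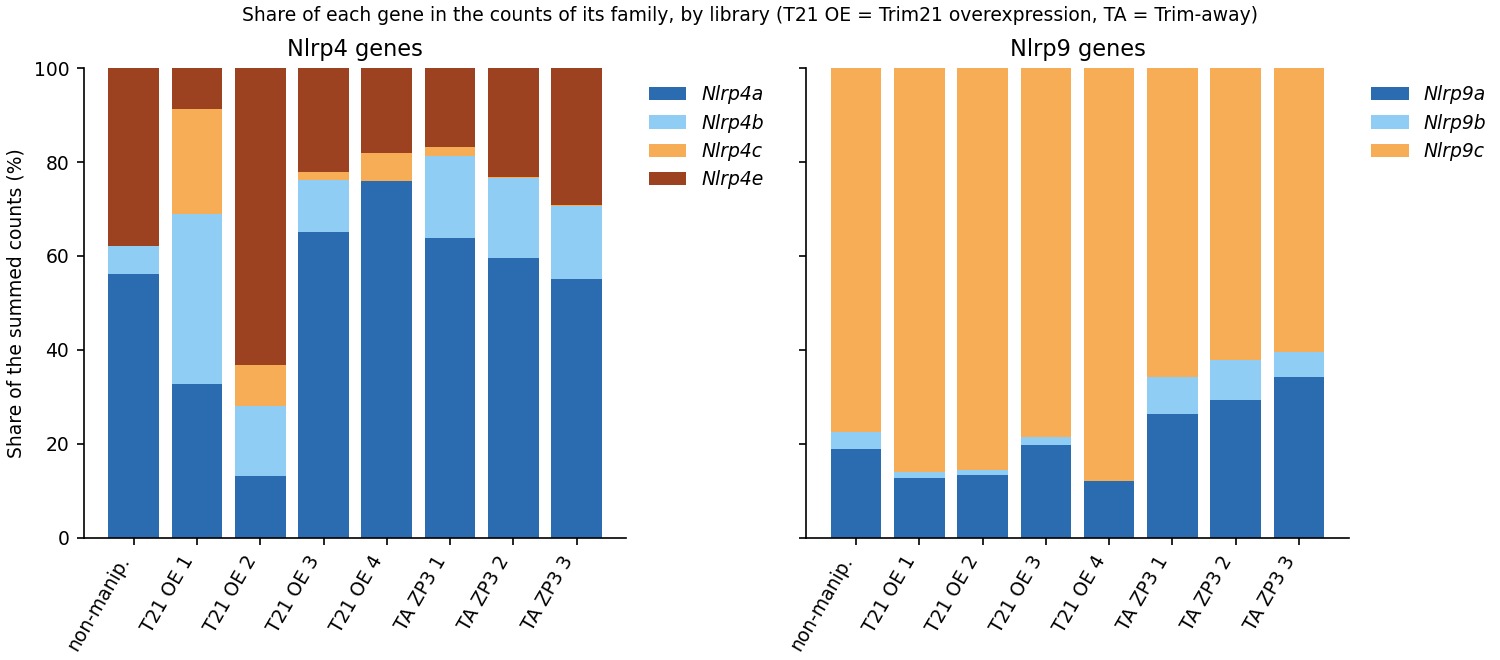
Share of each gene in the summed counts of the Nlrp4 genes (left) and the Nlrp9 genes (right) in each library, in percent. The Nlrp4 bars change from library to library in the Trim21 overexpression group, and the Nlrp9c share is 60.5% to 65.7% in the Trim-away ZP3 libraries against 78.6% to 87.9%.

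Summed over each family, Nlrp4 transcripts (Nlrp4a, Nlrp4b, Nlrp4c and Nlrp4e) were at 188 ± 51.4 CPM (SD, n = 4) in the Trim21 overexpression group and 1485 ± 931 CPM (SD, n = 3) in the Trim-away ZP3 group. Nlrp9 transcripts were at 1821 ± 480 and 5262 ± 1537 CPM. The log2 ratio of Nlrp4 to Nlrp9 counts within a library was -2.88, -4.07, -2.62 and -3.56 in the Trim21 overexpression libraries and -1.46, -2.11 and -2.32 in the Trim-away ZP3 libraries, without overlap, a difference of the means of 1.32. The ratio of Nlrp14 to Nlrp4 was lower in the Trim-away ZP3 libraries by 0.59 on the log2 scale (-0.90 to -0.28 against -0.27 to 0.37), where the groups nearly touched; without Trim-away ZP3 replicate 1 the difference of Nlrp14 to Nlrp4 was -0.39. That of Nlrp14 to Nlrp9 overlapped (-2.59 to -2.36 against -4.34 to -2.52). Together the 8 genes took 0.180% to 0.261% of all counts in the Trim21 overexpression libraries, 0.190% in the non-manipulated library and 0.617% to 0.965% in the Trim-away ZP3 libraries. These ratios are given as a description, with no test.

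The subcortical maternal complex, a protein assembly under the oocyte membrane built from maternal transcripts, served as the nearest comparison. Its 8 genes, which include the relatives Nlrp5, Nlrp4f and Nlrp2, summed to 812 ± 168 CPM (SD, n = 4) and 4759 ± 1715 CPM (SD, n = 3), and 3 of the 7 tested were higher with 0 lower. The log2 ratio of the 8 Nlrp genes to this complex was 0.96 to 2.02 in the Trim21 overexpression libraries and 0.67 to 0.72 in the Trim-away ZP3 libraries, without overlap. The non-manipulated library was at 0.88. The separation rests on Nlrp4f, which held 29.3% to 42.0% of the CPM of the complex in the Trim21 overexpression libraries and 56.4% to 67.0% in the Trim-away ZP3 libraries. Without Nlrp4f, an alternative chosen after seeing the data, the ratio was 1.75 to 2.64 and 1.90 to 2.32, with full overlap.

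**Figure D5:**
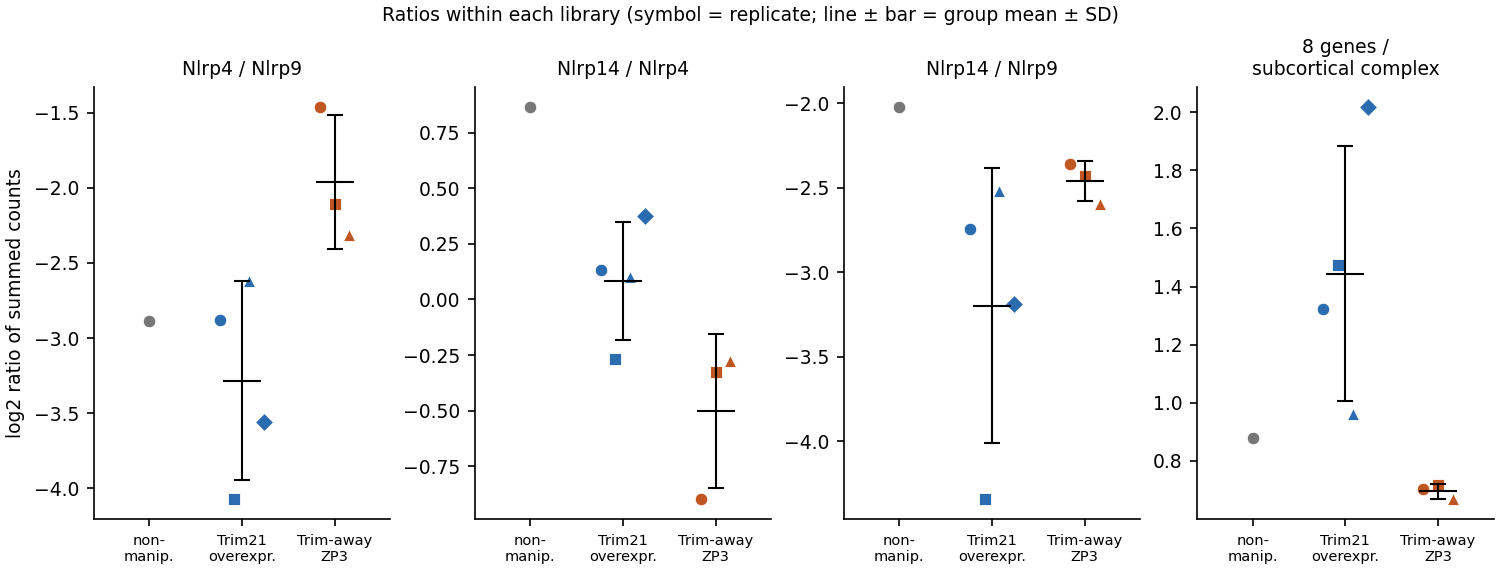
Log2 ratios of summed counts within each library, by group, with means ± SD. The ratio of Nlrp4 to Nlrp9 is -2.32 to -1.46 in the Trim-away ZP3 libraries and -4.07 to -2.62 in the Trim21 overexpression libraries, and the ratio of the 8 genes to the subcortical maternal complex is 0.67 to 0.72 against 0.96 to 2.02, a separation that is not found when Nlrp4f is left out of the complex.

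Of the other Nlrp genes of the female germ line, 3 of 4 tested were higher and 0 lower. Nlrp4f, a member of the subcortical maternal complex in the mouse, was at 200, 298, 438 and 243 CPM in the Trim21 overexpression libraries and at 3803, 2559 and 2232 CPM in the Trim-away ZP3 libraries (log2 fold change 3.28, SE 0.32, edgeR adjusted p = 0.00397). Nlrp4g (log2 fold change 2.77, SE 0.32, adjusted p = 0.00545) and Nlrp5, which encodes the complex member MATER (1.62, SE 0.38, adjusted p = 0.0366), were also higher. Nlrp2 was not called (2.81, SE 0.77, adjusted p = 0.0631), and Nlrp4d had 2 counts in all.

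Among 19 NLR genes known from somatic cells and inflammasomes and their partners, 8 passed the filter, and 0 were called in either direction. Nlrc3, a negative regulator of innate signalling, was at 14.0 to 25.8 CPM in the Trim21 overexpression libraries and 0.129 to 5.25 CPM in the Trim-away ZP3 libraries (edgeR adjusted p = 0.196), and Nlrp3 at 10.7 to 22.5 and 0.0859 to 9.38 CPM (adjusted p = 0.606). Nlrc4, which forms an inflammasome with NAIP proteins, lay above every Trim21 overexpression library, at 31.8 to 56.5 against 13.9 to 26.1 CPM (adjusted p = 0.274), and Naip1 was at 10.3 to 61.3 against 0 to 12.0 CPM (adjusted p = 0.403). The inflammasome adaptor Pycard had 2 counts in all and Casp1 had 1. The median log2 fold change of the 8 tested was -1.06.

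Genes for proteins linked to the family were examined by the same test. Of 3 linked to NLRP14, 2 were tested, and of 4 linked to NLRP9 or NLRP4, 3 were tested. Among those tested 0 were called. Uhrf1, whose protein binds NLRP14 in the mouse, was at 9.72, 12.5, 11.6 and 5.90 CPM in the Trim21 overexpression libraries and at 52.3, 51.8 and 29.1 CPM in the Trim-away ZP3 libraries, without overlap (log2 fold change 2.16, SE 0.59, edgeR adjusted p = 0.0623). Kpna2, of the genes linked to NLRP14, was at 1992 to 2455 and 1179 to 2638 CPM in these groups (edgeR adjusted p = 0.643). Dhx9, the helicase with which mouse NLRP9B senses viral RNA, was at 6.93 to 21.8 and 0.859 to 9.01 CPM (adjusted p = 0.380). Becn1 and Tbk1, whose proteins have been linked to human NLRP4, had adjusted p values of 0.485 and 0.969.

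Of 8 regulators of oocyte transcription, 6 were tested and 0 called. Tbpl2, the oocyte's substitute for the TATA-binding protein, was at 1.84 to 17.8 CPM and 30.2 to 96.7 CPM (edgeR adjusted p = 0.0538). Foxo3, which restrains the activation of primordial follicles, was at 62.5 to 113 and 147 to 180 CPM (adjusted p = 0.0919), and Nobox at 0 to 22.9 and 45.7 to 90.6 CPM (adjusted p = 0.405), all without overlap. Lhx8 was at 0.184 to 8.65 and 6.81 to 55.4 CPM (adjusted p = 0.418). Figla, which drives zona pellucida genes in the oocyte through E-boxes, had no count in the Trim-away ZP3 group and 0 to 1.84 CPM in the other.

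Of 12 genes of maternal mRNA decay, 3 were higher and 1 was lower. Higher were Cnot6l, a deadenylase of the CCR4-NOT complex (log2 fold change 2.22, SE 0.26, edgeR adjusted p = 0.00545), its partner Cnot7 (1.56, SE 0.28, adjusted p = 0.0154) and Dcp1a, an activator of decapping (3.10, SE 0.46, adjusted p = 0.00855). Ythdf2, a reader of methylated adenosine, was lower (-1.27, SE 0.32, adjusted p = 0.0492).

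The genes with the profile most like that of each family over the 8 libraries were sought among 6955 genes that averaged 10 CPM or more. Map2k1, the kinase MEK1 (Pearson's r = 0.991), Rgs2, a regulator of G protein signalling (0.990), and Oas1d, an oocyte member of the oligoadenylate synthetase family (0.987), came first for the summed Nlrp4 genes. For the summed Nlrp9 genes they were Oog2, an oogenesin of the oocyte (0.991), the nuclear receptor gene Rora (0.988) and Me1, malic enzyme (0.988). For Nlrp14 they were Pola1, the catalytic subunit of DNA polymerase alpha (0.989), Zfp655 (0.982) and Vamp4 (0.981). The points share the split into groups, and r was above 0.9 for 200, 192 and 124 of the genes searched. Among the 8 genes themselves, the highest r were those of Nlrp4a with Nlrp14 (0.979), Nlrp4b with Nlrp9b (0.949) and Nlrp4e with Nlrp9a (0.946), each between families, and all 7 of Nlrp4c lay between -0.175 and 0.348. These correlations over 8 libraries are descriptions.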

How the data were processed

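RNA of embryo pools was sequenced as 72-base single reads after a low-input library preparation; the methods name Trimmomatic, Hisat2, samtools, htseq-count and the submitters' notes FastQC 0.11.9, with GRCm38 as the build. Whether counting used the strand is not stated in these sources. The deposited table gives raw counts per gene and, by the authors, other values: RPKM and a gene width that spans introns (6.57 to 18.0 times the exon length of the 8 genes). RPKM served for alternatives only.

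The counts were filtered by expression, scaled by TMM and tested with edgeR 4.0.16 (quasi-likelihood, R 4.3.3) on the 7 injected libraries with Benjamini-Hochberg adjustment at 0.05; the common biological coefficient of variation was 1.16. The fitting script was run on simulated data with a smaller spread than that of these libraries. That run checks the working of the script and cannot show how reliable the calls are at the real spread. Log2 CPM used a prior count of 2. Of 52636 identifiers, 52489 matched GENCODE M21. Promoters are RefSeq's (GRCm38.p6). The alternatives were other scalings and filters, DESeq2 1.42.0, limma 3.58.1 on counts (voom) and on log2(RPKM + 0.1) or log2(RPKM + 1), the replicate block and the omission of libraries. Named genes were the 8 members, up to 4 per list by smallest p with any count of 5 or fewer spelled out, and the 3 of highest r per family; Pycard, Casp1, Nlrp4d and Figla were named after their values were seen. The members and lists were chosen with earlier results of these data known.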

Additional observations from a re-analysis of the deposited data

Results flagged for a closer look

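In the Trim21 overexpression group, replicate 1 was below the other 3 libraries for Nlrp9a, at 168 against 277 to 300 CPM. Its gap to the next library was 0.82904 of the range of the 4 libraries, past Dixon's critical value for 4 samples by less than 0.0001. Of the 8 genes looked at in this way it was the only one, and chance marks about 1 in 20 such groups. The rule was applied to CPM without logs. On that scale it did not mark Nlrp9b or Nlrp4b, for which replicate 4 was at 0.123 and 0 CPM.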

How the results depend on the processing

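Nlrp9a and Nlrp14 were higher with all 18 alternatives and called in 17 of them, Nlrp4e in 16, Nlrp4a in 11 and Nlrp9b in 10; each of the 5 lost its call with the replicate block. With the replicate block 0 genes were called in either direction, 0 of the 8 among them (7 at an unadjusted p under 0.05; DESeq2 and limma-voom without the block called 6 each). The same-numbered samples of the groups did not deviate together (correlations of -0.061, 0.0063 and -0.00036), so the numbers are not taken as pairs. With DESeq2, 1001 genes were higher and 1361 lower; with limma-voom 723 were higher. For limma on log2(RPKM + 1) 1072 were lower, and for edgeR on Trim-away ZP3 replicate 1 alone 935, where the median of all genes was -1.24. Leaving out 1 library gave 170 to 261 genes higher, 236 to 472 lower, and 3 to 4 of the 8 higher. The median of all genes was -0.31 with no filter and -0.14 with RPKM + 0.1. For limma-voom 51.2%, and for RPKM + 1 34.3%, of the calls were higher, against 43.3%. The sign of Nlrp4c, never called, turned to -0.18 with total counts, -0.018 with no filter, -1.43 with limma-voom, -0.46 with RPKM + 0.1, -0.058 with RPKM + 1 and -1.22 with the block, and ran from -3.30 to 0.91 on leaving out 1 library. The log2 ratio of Nlrp14 to Nlrp4 differed by -0.98 with Trim-away ZP3 replicate 1 alone and by -0.39 without it. That of the 8 genes to the complex differed by -0.012 with Nlrp4f left out of the complex. Where no cause is given, the cause was not tested. The spread between the 3 and 4 libraries limits what the test could call.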
